A study of Mus musculus with 12 samples.

Results

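The Gadd45 and p38 MAPK route to Sry was followed here as 9 genes: Gadd45a, Gadd45b, Gadd45g, Map3k4, Map3k1, Map2k3, Map2k6, Mapk14 and Mapk11. They were chosen by name, with earlier results of these data known. Every probe set that the array annotation gives to 1 of them was taken. This gave 22 probe sets of 44238 tested, and 9 genes of 17996 named. The study measured RNA of gonadal supporting cells, the somatic lineage that becomes Sertoli cells in a testis and pregranulosa cells in an ovary, to find candidate genes for sex determination. Flow cytometry isolated the cells from gonads of XX and of XY embryos at embryonic day 11.5 (E11.5) or 12.5 (E12.5), and each of the 4 groups holds 3 pools of cells, 1 array each. All 4 groups share 1 strain: FVB.Cg-Tg(Tyr)3412ARpw mice that also carry the transgene Tg(Sry-EGFP)92EI. XX and XY cells alike therefore hold the Sry-EGFP reporter, in which Sry control sequence drives green fluorescent protein. Whether each pool stands for its own litters is not said in the labels, and p-values reflect pool-to-pool spread only, which may be technical in part.

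GADD45 proteins are small stress-induced adaptors that bind the kinase MAP3K4 (MEKK4) and release it from its own inhibition. MAP3K4 then phosphorylates the kinases MAP2K3 and MAP2K6, which phosphorylate and activate p38 MAP kinases such as MAPK14 and MAPK11. In the fetal mouse gonad, loss of Gadd45g or of Map3k4 delays or lowers Sry and turns XY gonads toward the ovary, and p38 is held to act on GATA4, which binds the Sry promoter. An array reads RNA, so phosphorylation, the step by which this route carries its signal, was not measured.

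The promoters of the 3 Gadd45 genes are shown because all 3 genes were called between the days, and share short elements near their start sites. Each sequence is the 250 bases just before the annotated start in RefSeq (GRCm38.p6), written along the gene's own strand. Capitals mark 4 motifs, read on either strand. These are the TATA box as TATAAA, the CCAAT box, the E-box as CACGTG, and the core of the octamer bound by POU factors as ATTTGCA.
Gadd45a, chr6:67037408-67037657, minus strand: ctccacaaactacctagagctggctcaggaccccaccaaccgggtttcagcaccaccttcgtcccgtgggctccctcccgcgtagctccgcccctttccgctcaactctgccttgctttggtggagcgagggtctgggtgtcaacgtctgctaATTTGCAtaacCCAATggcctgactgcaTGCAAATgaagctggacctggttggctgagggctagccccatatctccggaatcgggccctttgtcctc
Gadd45b, chr10:80929841-80930090, plus strand: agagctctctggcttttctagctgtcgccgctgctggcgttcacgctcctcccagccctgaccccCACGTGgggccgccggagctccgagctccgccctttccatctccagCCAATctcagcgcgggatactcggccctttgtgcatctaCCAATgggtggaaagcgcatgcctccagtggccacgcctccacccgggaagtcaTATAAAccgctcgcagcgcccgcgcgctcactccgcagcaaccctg
Gadd45g, chr13:51846425-51846674, plus strand: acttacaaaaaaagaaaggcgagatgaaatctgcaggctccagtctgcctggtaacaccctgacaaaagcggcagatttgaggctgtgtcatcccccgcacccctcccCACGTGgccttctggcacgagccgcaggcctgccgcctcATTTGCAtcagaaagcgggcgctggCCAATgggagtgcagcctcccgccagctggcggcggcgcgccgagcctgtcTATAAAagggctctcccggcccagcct
All 3 windows hold CCAAT, which 33.8% of 32851 windows of the same length before annotated starts also hold. Gadd45b and Gadd45g hold TATAAA, found in 12.4% of windows, and CACGTG, found in 6.02%. Gadd45a and Gadd45g hold ATTTGCA, found in 3.56%. In Gadd45g the TATA box begins at position -27 from the start and the CCAAT box at position -78. In Gadd45b they begin at -46 and at -139 and -100. Gadd45a has no TATAAA, and its CCAAT box at -86 lies between octamer cores at -97 and, on the opposite strand, at -69. The AP-1 motif TGACTCA (in 4.46% of all windows) and the cyclic AMP element TGACGTCA (in 1.55%) are in none of the 3 windows. Nor is AGATAA, the motif of factors such as GATA4 (in 9.99%). The windows hold 59.2%, 65.2% and 62.0% G and C in the order listed. These 7 motifs were chosen after the sequences had been read, none overlaps another in these windows, and a match of letters is not a measured site.

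Levels are log2 values as deposited, and 1 unit is a doubling. A probe set was called where limma's adjusted p (Benjamini-Hochberg over 44238 probe sets, two-sided) was under 0.05. Levels of different probe sets are not compared, since each binds with its own strength. Sex labels held on every array: the X-inactivation RNA Xist read 12.8 to 12.95 in XX and 6.56 to 7.87 in XY. The labelled cell type showed at E12.5 in the mean of 11 Sertoli markers, 10.23 to 10.44 in XY and 7.27 to 7.32 in XX. Of these, 10 were called higher and 1 lower in XY. The mean of 9 pregranulosa markers was 7.43 to 7.6 in XY and 11 to 11.16 in XX on the same day. At E11.5 the Sertoli mean was 8.46 to 9.39 in XY and 7.35 to 7.39 in XX. The pregranulosa mean overlapped then, at 8.23 to 8.66 in XY and 8.28 to 9.25 in XX. XX pool 2 at E11.5 stood apart: its endothelial markers averaged 8.26 (10 genes, 6.22 to 6.95 on the other 11 arrays), its mesenchymal markers 10.05 (7 genes), and its cell cycle genes 10.47 (10 genes). The 8 germ cell markers averaged 5.16 to 6.66 on the 12 arrays. Y-linked probe sets read 3.09 to 7.39 in XX cells, which lack those genes. The top of that range, 7.39, came from a probe set of Sry, while the 5 Y-linked probe sets that separate the sexes gave 3.33 to 5.17. A level in the range is not shown to be above background, and a fold against it may be a lower bound. Such levels were those of Gadd45a at E12.5, Map2k6 and Junb at E11.5, and Sox9 and Spry2 in XX cells. In sorted pools, a lower share of cells of a type and less RNA per cell cannot be told apart.

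Between the sexes, none of the 22 probe sets was called, where 0.0678% of all probe sets were at E11.5 and 7.72% at E12.5. Between the days, 1 probe set was called in XX cells (3.11% of all) and 4 in XY cells (6.16% of all). They belong to Gadd45a, Gadd45b, Gadd45g and Map2k6. In XX cells Gadd45a fell from E11.5 to E12.5, by a measured 2.92-fold. In XY cells Gadd45g fell 2.56-fold, Gadd45b rose 2.12-fold and Map2k6 rose, by a measured 2.77-fold. The kinases Map3k4, Map3k1, Map2k3, Mapk14 and Mapk11 passed no test.

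**Figure D1:**
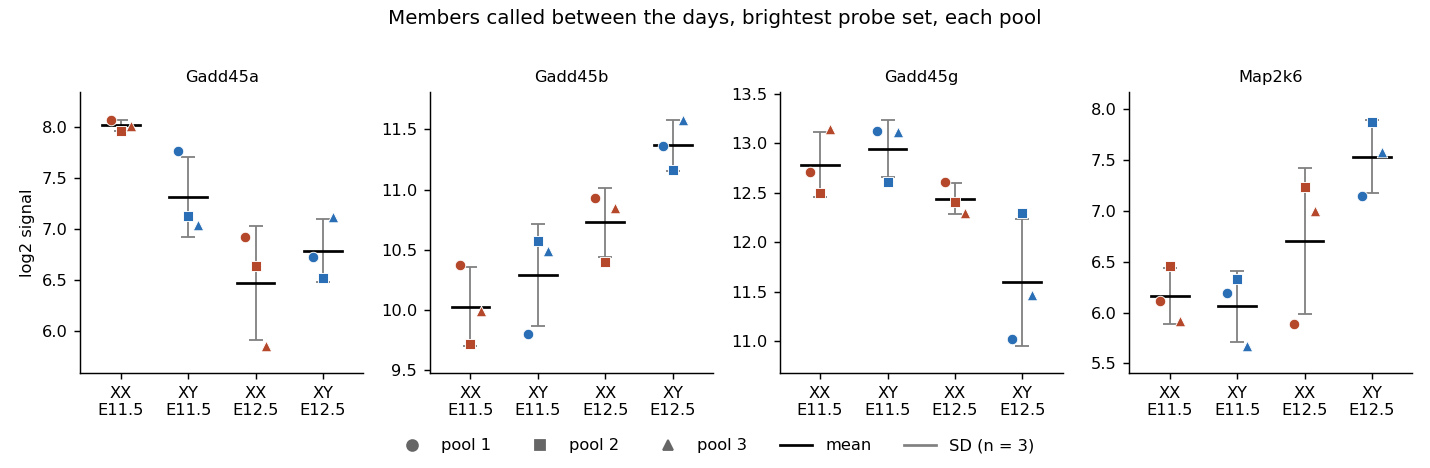
Log2 signal of the brightest probe set of Gadd45a, Gadd45b, Gadd45g and Map2k6 in each of the 12 pools (symbols give the pool number, black bars the mean, grey bars the SD, n = 3). By group mean, Gadd45a is lowest in XX at E12.5, and Gadd45b and Map2k6 are highest in XY at E12.5. Pools of neighbouring groups overlap for Gadd45a, where most XX and XY pools of E12.5 do, and for Map2k6. Gadd45g drops in XY pools at E12.5, with pool 2 at 12.29 next to the XX pools.

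Among the adaptors, Gadd45g is the member with a known part in switching on Sry. Its probe set 1453851_a_at read 12.71, 12.5 and 13.14 in the XX pools at E11.5, and 13.12, 12.61 and 13.11 in the XY pools of that day. At E12.5 it read 12.61, 12.41 and 12.3 in XX, and 11.02, 12.29 and 11.47 in XY. Both sexes were alike high at E11.5 and overlapped fully, while all 3 XY pools at E12.5 lay below every other pool, pool 2 only narrowly. The level fell in XY cells by 1.36 ± 0.3 (SE) on the log2 scale, which is 2.56-fold (95% interval 1.61 to 4.06, adjusted p = 0.027, lower in 3 of 3 pools than in any E11.5 pool). In XX cells the difference was -0.34 (adjusted p = 0.54). At E11.5 XY and XX differed by 0.16 (95% interval -0.5 to 0.83, adjusted p = 0.91). At E12.5 XY lay 0.85 below XX (adjusted p = 0.13), and the change of the sex difference between the days was -1.01 (adjusted p = 0.3). From highest to lowest the groups ran XY at E11.5 (12.95 ± 0.29 SD, n = 3), XX at E11.5 (12.78 ± 0.33), XX at E12.5 (12.44 ± 0.16) and XY at E12.5 (11.59 ± 0.65), and the pools of neighbours among the first 3 groups overlap. The fall in XY cells lost its call when XY pool 1 or 3 was left out at E11.5 (adjusted p 0.077 and 0.096) or at E12.5 (0.073 and 0.094), over a range of 0.006 to 0.1 in 21 alternatives. Without XY pool 2 at E12.5 the fall was 1.71 (adjusted p = 0.006), and the difference between the sexes that day was then called, at -1.2 (adjusted p = 0.02).

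Gadd45a is the member of the family that the tumour suppressor p53 induces after DNA damage. On its probe set 1449519_at the XX pools read 8.07, 7.96 and 8.01 at E11.5, then 6.92, 6.64 and 5.85 at E12.5. The XY pools read 7.76, 7.13 and 7.04 at E11.5, then 6.72, 6.52 and 7.12 at E12.5. XX pools at E11.5 were the highest of all 12 and did not overlap with any other group, whereas XY pools of the 2 days overlapped. In XX cells the level fell by 1.54 ± 0.28 (SE) on the log2 scale, a measured 2.92-fold (1.89 to 4.5, adjusted p = 0.023), which may be a lower bound since the E12.5 readings lie in the background range. In XY cells the difference was -0.52 (adjusted p = 0.35), and the falls in XX and XY were not shown to differ (1.02, 95% interval 0.13 to 1.91, adjusted p = 0.27). XY lay 0.7 below XX at E11.5 (adjusted p = 0.72) and 0.32 above XX at E12.5 (adjusted p = 0.63). The groups ran XX at E11.5 (8.01 ± 0.05 SD, n = 3), XY at E11.5 (7.31 ± 0.39), XY at E12.5 (6.79 ± 0.3) and XX at E12.5 (6.47 ± 0.55), and the pools of the last 3 groups overlap from neighbour to neighbour. The call in XX was lost without XX pool 2 or 3 of E11.5 (adjusted p 0.059 and 0.063) or of E12.5 (0.072 and 0.072), over a range of 0.013 to 0.072. Without XX pool 2 of E11.5, which stood apart, the difference was -1.57.

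Gadd45b, the member induced early by TGF-beta and NF-kappa-B signals, went the other way. Its brightest probe set, 1449773_s_at, read 10.37, 9.72 and 9.99 in XX and 9.8, 10.57 and 10.49 in XY at E11.5. At E12.5 it read 10.93, 10.4 and 10.85 in XX and 11.36, 11.16 and 11.58 in XY. XY pools at E12.5 were above all other pools, and in XX the days were also fully separate, if narrowly. The rise in XY was 1.08 ± 0.25 (SE), 2.12-fold (1.45 to 3.09, adjusted p = 0.03), and in XX the difference was 0.7 (adjusted p = 0.13). A further probe set, 1450971_at, gave 8.3, 8.92 and 8.54 in XY at E11.5, then 9.51, 9.24 and 9.43 at E12.5, a rise of 0.81 ± 0.18, 1.75-fold (1.32 to 2.33, adjusted p = 0.031). On it the XX difference, 0.64 (adjusted p = 0.086), was nearly as large. The third, 1420197_at, read between group means of 5.81 and 6.2 and differed by 0.25 in XY (adjusted p = 0.65). XY minus XX on the brightest was 0.26 at E11.5 (adjusted p = 0.83) and 0.64 at E12.5 (adjusted p = 0.17), and the change between the days was 0.38 (adjusted p = 0.68). Its groups ran from XX at E11.5 (10.03 ± 0.33 SD, n = 3) through XY at E11.5 (10.29 ± 0.42) and XX at E12.5 (10.72 ± 0.29) to XY at E12.5 (11.37 ± 0.21), and the pools of the first 3 groups overlap from neighbour to neighbour. The rise on the brightest probe set was not called without XY pool 1 or 3 of E11.5 (adjusted p 0.075 and 0.06) or without any 1 XY pool of E12.5 (0.076, 0.053 and 0.11), nor after quantile normalization (0.99, adjusted p = 0.067) or as the mean of the gene's probe sets (0.71, adjusted p = 0.053). The range over 21 alternatives was 0.019 to 0.11. The call on the other probe set was lost without the same 5 XY pools, and without XX pool 3 of E12.5, where adjusted p was 0.05.

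Some early response genes rose in the same comparison as Gadd45b. Immediate early genes are transcription factors and others that cells switch on within minutes of a signal or of handling. Of 16, 2 rose in XY cells between the days, where 4.47% of all genes were called higher. Egr1, an early zinc finger factor, read 11.74, 10.84 and 11.39 in XY at E11.5, then 13.31, 13.09 and 13.08 at E12.5. Junb, a subunit of AP-1, rose by 1.54 from E11.5 readings in the background range given above. The mean of the 16 ran from 9.83 to 10.06 in XY at E11.5, 10.5 to 10.7 in XY at E12.5, 9.14 to 9.99 in XX at E11.5 and 9.32 to 10.03 in XX at E12.5. Between the sexes at E12.5, where 5.59% of all genes were called higher, 5 of the 16 were higher in XY and 0 lower. These were Fosl2, Egr1, Nr4a1, Junb and, named after its values were seen, Nfkbiz. Of these, Egr1, Nr4a1 and Junb lost their calls without XX pool 2 or 3 of that day, Nr4a1 and Junb also without XY pool 2 or 3, and Egr1 without XY pool 1. The part of early response genes in the Gadd45b result was not tested. The factor p53 induces Gadd45a. Of 10 p53 response genes, none was called between the days by limma, where 3.76% of all genes were in XX and 7.01% in XY. At an unadjusted p under 0.05 there were 0 in XX and 2 in XY, where 22.2% and 20.2% of all probe sets were. Between the sexes at E12.5, where 11.1% of all genes were called, 1 of the 10 was lower in XY, the cell cycle inhibitor Cdkn1a (p21, -2.5). In XY 1 was higher, the antiproliferative Btg2 (1.5). Its call was lost in 11 of 21 alternatives, 8 of them left-out pools on either day.

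Map3k4 is the kinase that GADD45 proteins activate, and its loss reverses XY gonads. Its brightest probe set, 1459800_s_at, read 10.81, 10.77 and 10.63 in XX and 10.58, 10.79 and 11.09 in XY at E11.5. It read 10.79, 10.96 and 11.03 in XX and 10.81, 11.2 and 10.76 in XY at E12.5. All 4 groups overlapped, and the whole range over 12 pools was below 1 log2 unit. XY minus XX was 0.09 at E11.5 (95% interval -0.27 to 0.44, adjusted p = 0.91) and -0.01 at E12.5 (-0.36 to 0.35, adjusted p = 0.99). The days differed by 0.19 in XX (-0.16 to 0.55) and by 0.1 in XY (-0.26 to 0.45). On this probe set, differences past 0.55 log2 units in either direction therefore lie outside all 4 intervals. Its next probe sets, 1447667_x_at and 1421450_a_at, gave differences from -0.08 to 0.38, none called. The dimmest, 1450253_a_at, read lower in XY than in XX at E11.5 (6.49 ± 0.16 against 6.92 ± 0.22, SD, n = 3) without overlap, a difference of -0.44 (adjusted p = 0.77). On that probe set XX also lay lower at E12.5 than at E11.5, by -0.59 (adjusted p = 0.19).

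Map3k1 (MEKK1), a kinase that feeds JNK and p38 and was compared as the other MAP3K, showed the most separate pools of all members without passing the test. Probe set 1424850_at read 8.54, 8.47 and 8.43 in XX and 8.26, 7.38 and 7.8 in XY at E11.5. At E12.5 it read 8.11, 8.1 and 8.01 in XX and 8.6, 8.42 and 8.43 in XY. The pools did not overlap in any of the 4 comparisons, and the order of the sexes turned: XY was below XX at E11.5 and above it at E12.5. XY minus XX was -0.66 at E11.5 (95% interval -1.07 to -0.25, adjusted p = 0.47) and 0.41 at E12.5 (0 to 0.82, adjusted p = 0.25). The days differed by -0.41 in XX (adjusted p = 0.23) and 0.67 in XY (adjusted p = 0.063). The change of the sex difference was 1.07 ± 0.26 (SE) (95% interval 0.5 to 1.65, adjusted p = 0.075). It passed without XY pool 1 of E11.5, at 1.3 (adjusted p = 0.0096), as did the difference between the days in XY, at 0.89 (adjusted p = 0.009). The latter also passed with median centring (0.72, adjusted p = 0.044) and with array weights (0.72, adjusted p = 0.036), and the former among the brightest probe sets per gene (adjusted p = 0.045). The dimmer probe set of the gene, 1443540_at, gave differences from -0.17 to -0.02 with intervals that span -0.94 to 0.75.

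**Figure D2:**
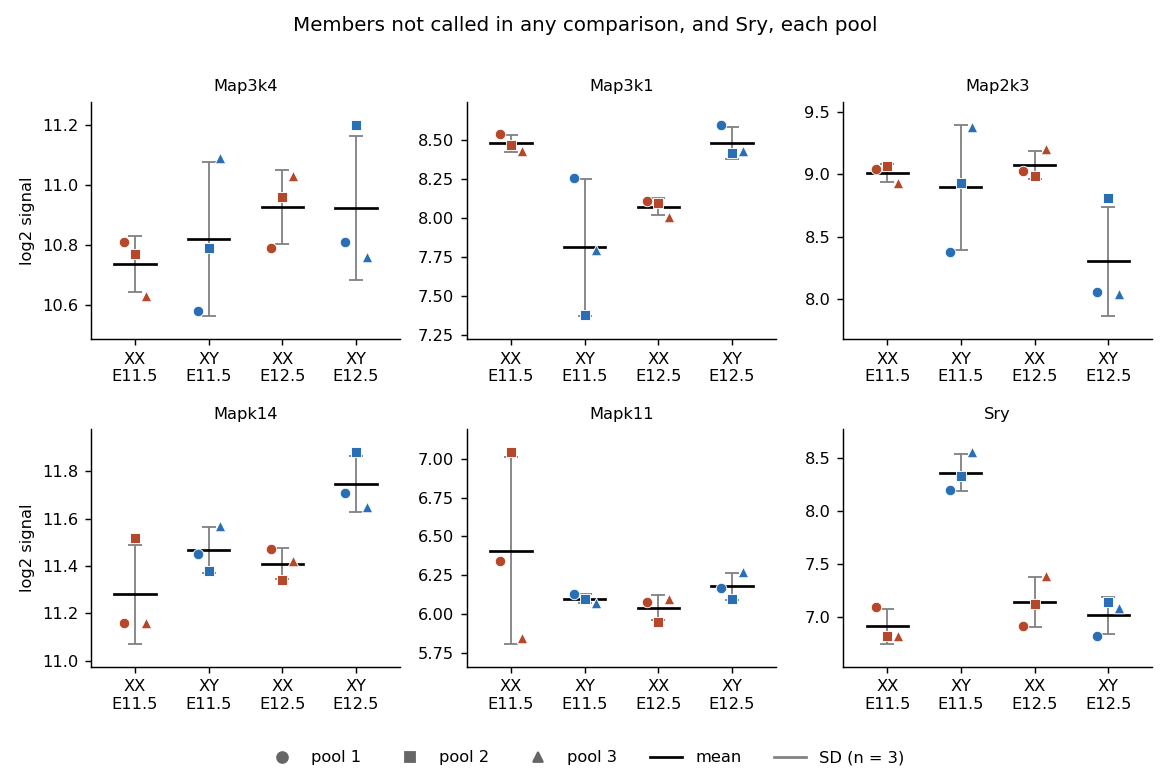
Log2 signal of the brightest probe set of the 5 members that were not called, and of Sry, in each of the 12 pools (symbols give the pool number, black bars the mean, grey bars the SD, n = 3). Map3k1 turns its order between the days, Map3k4 and Mapk11 overlap in most groups, and Sry is high in the 3 XY pools at E11.5 alone. Each panel has its own scale.

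Map2k6 and Map2k3 encode the kinases that phosphorylate p38 directly. Map2k6, on probe set 1426850_a_at, read 6.11, 6.46 and 5.92 in XX and 6.19, 6.33 and 5.67 in XY at E11.5. At E12.5 it read 5.89, 7.23 and 7 in XX and 7.15, 7.87 and 7.58 in XY. It was low in both sexes at E11.5, and at E12.5 all 3 XY pools and 2 of the 3 XX pools read above every E11.5 pool. Only XY pools 2 and 3 of E12.5 lay above the background range given above. The rise in XY was 1.47 ± 0.34 (SE), a measured 2.77-fold (1.64 to 4.7, adjusted p = 0.033). Since all XY readings at E11.5 lie in the background range given above, this fold may be a lower bound. In XX the difference was 0.55 (-0.22 to 1.31, adjusted p = 0.38), and the 2 changes were not shown to differ (0.93, -0.15 to 2, adjusted p = 0.43). XY minus XX was -0.1 at E11.5 (adjusted p = 0.95) and 0.83 at E12.5 (adjusted p = 0.2). The groups ran XY at E11.5 (6.06 ± 0.35 SD, n = 3), XX at E11.5 (6.16 ± 0.27), XX at E12.5 (6.71 ± 0.72) and XY at E12.5 (7.53 ± 0.36), with no neighbouring pair called. The rise in XY lost its call without XY pool 1 or 3 of E11.5 (adjusted p 0.066 and 0.12) or pool 2 or 3 of E12.5 (0.11 and 0.1), over a range of 0.0092 to 0.12.

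Map2k3, on probe set 1451714_a_at, read 9.04, 9.07 and 8.93 in XX and 8.38, 8.93 and 9.38 in XY at E11.5, and 9.03, 8.99 and 9.2 in XX and 8.06, 8.81 and 8.04 in XY at E12.5. XY pools at E12.5 were below all XX pools of both days. The difference between the sexes at E12.5 was -0.77 ± 0.26 (SE, 95% interval -1.35 to -0.2, adjusted p = 0.11). Without XY pool 2 of E12.5 it was -1.03 (adjusted p = 0.038), and with arrays weighted by quality it was -0.86 (adjusted p = 0.028). The days differed by -0.59 in XY (adjusted p = 0.23) and 0.06 in XX (adjusted p = 0.91). The gene's dimmer probe set, 1425456_a_at, differed by -0.17 to -0.04 in the 4 comparisons. On their brightest probe sets, Map2k3 and Map2k6 differed from XX in opposite directions in XY cells at E12.5, but neither difference was called. Of the 2 genes only Map2k6 was called, in the comparison of days in XY.

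Mapk14 encodes p38-alpha, the p38 kinase of most tissues, and was measured by 6 probe sets. On the brightest, 1416703_at, XX pools read 11.16, 11.52 and 11.16 at E11.5, then 11.47, 11.34 and 11.42 at E12.5. XY pools read 11.45, 11.38 and 11.57 at E11.5, then 11.71, 11.88 and 11.65 at E12.5, above all other pools. The sexes differed by 0.34 at E12.5 (95% interval 0.06 to 0.61, adjusted p = 0.15) and the days by 0.28 in XY (adjusted p = 0.24). Probe set 1442364_at went the other way in XY, from 8.68, 8.26 and 9.3 to 7.38, 8.12 and 7.65, a difference of -1.03 (-1.74 to -0.33, adjusted p = 0.09), and by -0.52 in XX (adjusted p = 0.36). The other 4 gave differences from -0.39 to 0.38, none called. The probe sets of this gene thus disagree in sign between the days in XY cells, with 1 higher and 5 lower.

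Mapk11 encodes p38-beta. Its probe set 1421926_at read 6.34, 7.04 and 5.85 in XX and 6.13, 6.1 and 6.07 in XY at E11.5, and 6.08, 5.95 and 6.1 in XX and 6.17, 6.1 and 6.27 in XY at E12.5. Apart from the first 2 XX pools of E11.5, all pools lay between 5.85 and 6.27, and the differences ran from -0.37 to 0.14, none called. Its other probe set, 1421925_at, kept its group means between 5.99 and 6.17. Both lie above the 3.33 to 5.17 that the 5 Y-linked probe sets separating the sexes gave in XX cells, where those genes are lacking, but other Y-linked probe sets read up to 7.39 there, the highest being that of Sry.

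**Figure D3:**
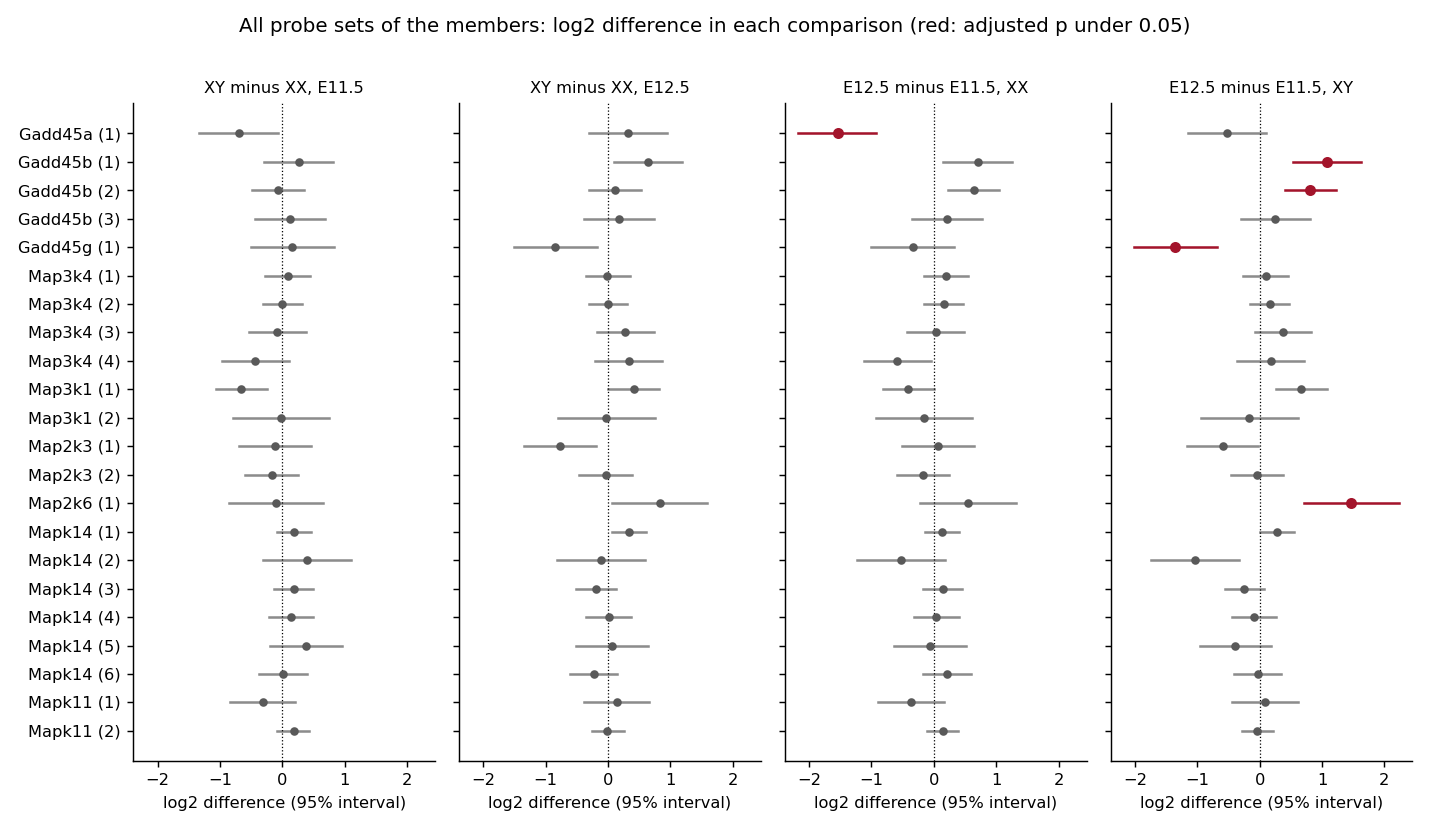
Log2 difference with its 95% interval from limma for each of the 22 probe sets in 4 comparisons, numbered within a gene from the brightest. Red marks an adjusted p under 0.05: Gadd45a in XX between the days, and Gadd45b (2 probe sets), Gadd45g and Map2k6 in XY between the days.

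The counts of members are given here beside those of all probe sets. Since the members and the other gene lists were chosen with earlier results of these data known, their counts are a description. They do not test for an excess over all genes. In the comparison of days in XY cells, 4 of 22 were called (18.2%), 3 higher and 1 lower, where 6.16% of all probe sets were called, 3.18% higher and 2.98% lower. In XX cells 1 of 22 was called (4.55%), and it was lower, where 3.11% of all were called and 1.43% were lower. Between the sexes limma called 0 of 22 at E11.5, where 0.0678% of all were called, and 0 of 22 at E12.5, where 7.72% were. At an unadjusted p under 0.05 there were 2 and 6, where 6.81% and 20% of all probe sets were. For the change of the sex difference 0 of 22 was called, where 1.75% of all were called, and 4 had an unadjusted p under 0.05, where 14.6% of all did. Probe sets of 1 gene share a target, so in genes, by the brightest probe set, the counts were 3 of 9 between the days in XY (7.01% of 17996 genes), 1 of 9 between the days in XX (3.76%), 0 of 9 between the sexes at E11.5 (0.0556%) and at E12.5 (11.1%), and 0 of 9 for the change (2.83%).

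Pools that did not overlap were found for 3 of the 22 between the sexes at E11.5 (10.1% of all probe sets), 6 at E12.5 (28.6%), 6 between the days in XX (26.6%) and 8 between the days in XY (26.8%). With 3 pools a group the exact permutation test of a single probe set cannot go below p = 0.1, so the separation adds no call. The median difference of the 9 genes was -0.1 between the sexes at E11.5 (0.04 over all genes), 0.32 at E12.5 (0), 0.06 between the days in XX (0.12), 0.1 in XY (0.06) and 0.38 for the change (-0.06). The count in XY was 0 without XY pool 3 of either day, and 1 without XY pool 1 of E11.5 or pool 1 or 2 of E12.5. Without XY pool 3 of E11.5 or of E12.5, the calls over all probe sets also fell, from 2726 to 1277 and 1369. The differences were then -1.27 and -1.29 for Gadd45g, 1.18 and 0.97 for the brightest Gadd45b probe set, and 1.27 and 1.45 for Map2k6. The count in XX was 0 without XX pool 2 or 3 of either day, where the calls over all probe sets fell from 1378 to between 183 and 596.

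The other genes of the p38 route, kinases above and beside the members and targets below them, were called in part between the sexes at E12.5. Of 20 measured, 3 were called higher and 2 lower in XY at E12.5, where 11.1% of all genes were called. At E11.5 limma called 0 of the 20 (0.0556% of all genes), with 3 at an unadjusted p under 0.05 (6.81% of all probe sets). The median differences were 0.16 and 0.13. Mapk13, which encodes p38-delta, read 8.3, 9.02 and 8.61 in XX and 10.7, 11.83 and 11.41 in XY, 6.37-fold higher (3.67 to 11, adjusted p = 0.0015). Mapk12, which encodes p38-gamma, read 8.41, 9.13 and 8.87 in XX and 7.44, 6.36 and 7.24 in XY, 3.46-fold lower (2.03 to 5.88, adjusted p = 0.011). Neither pair of groups overlapped, so both of these p38 genes differed between the sexes, in opposite directions. The Mapk12 readings of 6.36 and 7.24 in XY lie in the background range given above, so its fold may be a lower bound. Mapkapk2 (MK2), a kinase that p38 activates, was 2.79-fold higher in XY (1.75 to 4.43, adjusted p = 0.014), a call lost without XX pool 3 or XY pool 3 of that day, where adjusted p ran up to 0.056. Mknk1, a p38 and ERK target that phosphorylates the cap-binding factor eIF4E, was 1.87-fold higher on the brightest of its 3 probe sets (1.48 to 2.36, adjusted p = 0.0053) and not called as their mean (0.34). The second gene called lower was its relative Mknk2, named here after its values were seen, at -1.1.

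Between the days, 3 of these 20 genes rose in XY and 0 fell, with a median of 0.24, where 4.47% of all genes were called higher. Mapk13 rose 5.03-fold (2.9 to 8.71, adjusted p = 0.0048) and Mknk1 2.51-fold (1.99 to 3.18, adjusted p = 0.00092). Mef2a, a transcription factor that p38 phosphorylates, rose 1.68-fold on its brightest of 6 probe sets (adjusted p = 0.049). The mean of its probe sets differed by -0.05, and the call was also lost without any 1 XY pool of either day, XX pool 3 of E11.5, or XX pool 2 or 3 of E12.5, over adjusted p from 0.014 to 0.89. In XX, where 2.55% of all genes were called higher, 1 rose. It was Hspb1, a small heat shock protein phosphorylated by MK2, 3.8-fold (1.94 to 7.46, adjusted p = 0.046). That call was lost without XX pool 2 or 3 of either day, or XY pool 3 of either day, with adjusted p from 0.02 to 0.16. The sex difference of Mknk1 changed between the days by 1.26 (adjusted p = 0.017) and that of Mapk12 by -2.28 (adjusted p = 0.049). The first lost its call without XY pool 2 of E11.5 or XX pool 3 of E12.5 and as the mean of its probe sets (0.42, adjusted p = 0.4, range 0.01 to 0.4), the second in 15 of 20 alternatives, among them each left-out pool other than pool 1 of XX and of XY at E11.5.

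Phosphatases that switch p38 off were higher in XY at E12.5 for 4 of 8 genes and lower for 0, with a median of 0.56. Of all genes, 5.59% were called higher there. Dusp4 read 8.82, 7.29 and 7.43 in XX and 11.59, 11.14 and 11 in XY, 10.6-fold higher (5.46 to 20.4, adjusted p = 0.001). Dusp16 was 3.02-fold higher (2 to 4.56, adjusted p = 0.0052), and Dusp1, also an early response gene, 3.09-fold (1.71 to 5.6, adjusted p = 0.029). Ppm1a was 1.63-fold higher (1.32 to 2, adjusted p = 0.01) on 1 of its 8 probe sets, and not called as the mean of them (0.47). The call of Dusp1 was lost without any 1 of the 3 XY pools, or XX pool 2 or 3, of E12.5 (adjusted p up to 0.11). At E11.5 none of the 8 was called, where 0.0556% of all genes were. By limma 3 had an unadjusted p under 0.05, where 6.81% of all probe sets did. Between the days Dusp16 fell 2.83-fold in XX (1.87 to 4.27, adjusted p = 0.021), a call lost without XX pool 2 or 3 of either day, and Ppm1a rose 1.64-fold in XY (adjusted p = 0.013), a call lost without XY pool 3 of E11.5 and as the mean of its probe sets (0.14). The sex difference of Dusp16 changed between the days by 2.34 (adjusted p = 0.014, and 0.059 as the mean of its probe sets).

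**Figure D4:**
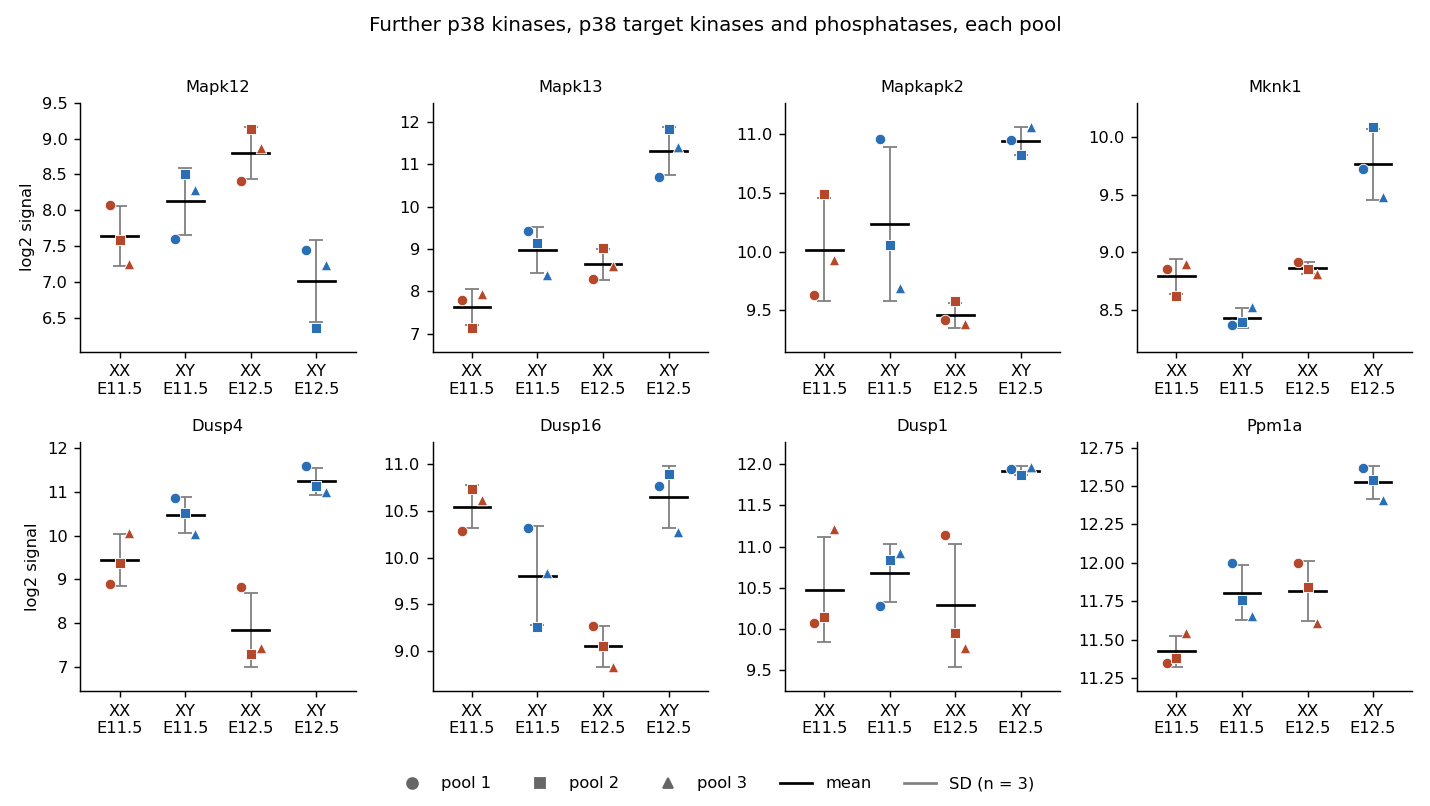
Log2 signal of 4 further kinases of the p38 route and of 4 p38 phosphatases in each of the 12 pools (symbols give the pool number, black bars the mean, grey bars the SD, n = 3). At E12.5 the XY pools lie above the XX pools in all panels but Mapk12, where they lie below. Each panel has its own scale.

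The neighbouring MAP kinase arms differed in their counts, to be read beside the shares of all genes given with the counts of members. Of 11 genes of the JNK arm, which shares MAP3K1 and MAP3K4 with p38, limma called 0 in all 5 comparisons. At an unadjusted p under 0.05 there were 0, 3, 3, 2 and 0 (sexes at E11.5 and E12.5, days in XX and XY, the change). In the same order, 6.81%, 20%, 22.2%, 20.2% and 14.6% of all probe sets had such a p. Of 9 genes of the ERK arm, 3 were higher and 1 lower in XY at E12.5, where 11.1% of all genes were called. In the other comparisons 0 were called, with 1, 2, 4 and 3 at an unadjusted p under 0.05. Higher were Dusp6, an ERK phosphatase that ERK itself induces (2.63), the kinase Map2k1 (1.64) and the inhibitor Spry2 (0.82), and lower was the kinase Rps6ka3 (-1.39). The call of Spry2 was lost without XX pool 2 or 3 or XY pool 1 or 3 of E12.5, with the compared arrays alone and as the mean of its probe sets (0.42), and that of Rps6ka3 without any 1 XX pool of E12.5. Of 10 genes linked to GADD45 in DNA demethylation, the dioxygenase Tet2 fell by 2.22 between the days in XX and Tet1 fell by 1.96 in XY. The first call was lost without XX pool 1 or 2 of E11.5 or pool 2 or 3 of E12.5, and the second without XY pool 1 of E11.5 or pool 2 or 3 of E12.5, and as the mean of the gene's probe sets (-0.38). No gene of that list was called between the sexes, with 1 and 4 at an unadjusted p under 0.05.

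Sry is the end of the route. Its brightest probe set read 7.1, 6.82 and 6.82 in XX and 8.2, 8.33 and 8.55 in XY at E11.5, and 6.92, 7.12 and 7.39 in XX and 6.82, 7.14 and 7.09 in XY at E12.5. XY pools at E11.5 stood above all others, and at E12.5 XY and XX overlapped. XX cells lack the Y-linked gene, so their readings show what this probe set gives without it, and any signal from the reporter was not tested. Against that background XY was a measured 2.73-fold higher at E11.5 (2.14 to 3.48, adjusted p = 0.0067), which may be a lower bound. XY fell a measured 2.54-fold to E12.5 (1.99 to 3.23, adjusted p = 0.0011), which may also be a lower bound. At E12.5 XY was no longer separate from the background. The change of the sex difference was -1.57 (adjusted p = 0.0067). When Sry was high, at E11.5, Gadd45g was at 12.95 ± 0.29 in XY and 12.78 ± 0.33 in XX (SD, n = 3), and both fell in XY by E12.5.

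Gata4, the factor that p38 is held to act on, was not called in any comparison: XY minus XX was 0.78 at E11.5 (adjusted p = 0.73) and 0.01 at E12.5 (adjusted p = 0.99), and the days differed by 0.7 in XX (adjusted p = 0.24) and -0.07 in XY (adjusted p = 0.95). Of the 13 measured genes of Sry and its activators, 2 were higher in XY at E11.5, where 0.0556% of all genes were called. They were Sry and its target Sox9, which was 19.8-fold higher (11 to 35.6, adjusted p = 0.0014). The XX readings of Sox9 lie in the background range on both days, so its folds may be lower bounds. Both calls at E11.5 were lost with the 6 compared arrays alone, where adjusted p was 0.2 and 0.23. At E12.5, 2 were higher and 2 lower, where 11.1% of all genes were called. Sox9 was 15.8-fold higher, and Zfpm2 (FOG2, the partner of GATA4) 2.35-fold higher. Lhx9, a homeobox factor of the early gonad, was 17.6-fold lower, and Kdm3a, a histone demethylase that acts on Sry, 2.25-fold lower. The call of Zfpm2 was lost without any 1 XY pool of E12.5 (adjusted p up to 0.074). Between the days in XY, where 7.01% of all genes were called, Lhx9 fell 14.2-fold, Sry a measured 2.54-fold and Kdm3a 2.05-fold, and 0 rose. In XX, Zfpm2 fell 3.58-fold and Cbx2, a polycomb protein needed for Sry expression, rose 1.84-fold, a call lost without XX pool 2 or 3 of either day. The sex difference of Lhx9 changed between the days by -3.86.

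Cell cycle genes, among them Cdk1, whose protein GADD45 proteins can inhibit, were measured beside the members. Of 10 measured, 6 were higher in XY at E12.5 and 0 lower, with a median of 2.12, where 5.59% of all genes were called higher. Between the days in XY 1 rose, the mitotic kinase Aurka, where 4.47% of all genes were called higher. That call was lost without XY pool 1 of E11.5 or pool 2 or 3 of E12.5. Of the calls between the sexes, Cdk1 was lost without XX pool 1 or 3 or any 1 XY pool of E12.5, and Cenpe without any 1 pool of that day and as the mean of its probe sets (1.12, against 2.1). Bub1 was lost without XX pool 1 of E11.5, or XX or XY pool 1 or 3 of E12.5. The mean of the 10 ran from 9.86 to 10.14 in XY at E12.5, 8.12 to 9.14 in XY at E11.5, 6.74 to 8.4 in XX at E12.5 and 8.29 to 10.47 in XX at E11.5. The macrophage and leukocyte markers (9 genes) averaged 7.22 to 7.54 in XY at E12.5, 6.27 to 6.63 in XY at E11.5, 6.77 to 6.87 in XX at E12.5 and 6.54 to 7.95 in XX at E11.5. The endothelial markers averaged 6.41 to 6.95 in XY at E12.5 and 6.35 to 6.49 in XY at E11.5. The part of either in the changes of Gadd45b, Gadd45g and Map2k6 was not tested.

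As a description over the 12 arrays, the members varied together in few pairs. Gadd45g ran against Gadd45b (Pearson r = -0.77) and against Map2k6 (r = -0.72), and the 12 points share the 4 groups. The genes most like Gadd45g among 16135 were Gata6 (r = 0.929), Dnajc1 (0.929), Resf1 (0.926), Ptpn1 (0.917) and Sars (0.911). Gata6, a GATA factor of the gonad, averaged 11.55 (XX) and 11.73 (XY) at E11.5, then 11.22 and 10.21 at E12.5, the same order as Gadd45g. Those most like Map2k6 were Lap3 (0.97), Hddc2 (0.959), P3h4 (0.955), Tmem17 (0.954) and Auh (0.939). P3h4 averaged 9 in XX and 8.7 in XY at E11.5, then 9.25 and 10.16 at E12.5, highest, as Map2k6 was, in XY at E12.5. Map3k4, whose own differences were small, had Slx4 (0.892), Sbno2 (0.891), Lzts2 (0.888), Nob1 (0.886) and Amn (0.886) closest to it.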

How the data were processed

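RNA of sorted supporting cells was measured on 12 Affymetrix mouse arrays, in 4 groups of 3 pools. Per the labels' protocols, RNA was isolated with PicoPure, amplified in 2 rounds with TargetAmp and biotin-labelled. The authors deposited log2 values per probe set. How they were summarised and normalized is not stated in the labels or files used, and the log base was taken as 2 because the largest value, 14.45, allows a base of at most 2.15 on a 16-bit scanner. Amplification and log values near background can compress differences. Array medians ran from 6.494 to 6.592.

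Of 45037 probe sets, 798 blank on all arrays and 1 blank on 1 array were left out. Of 44238 tested, 34328 held 1 gene symbol, 850 several and 9060 none, and 34126 symbols were matched by Entrez identifier to RefSeq (GRCm38.p6). Probe sets whose names end in _s_at or _x_at can share probes with other transcripts. limma 3.58.1 in R 4.3.3 fitted 4 group means over 12 arrays (8 residual and 2.11 prior degrees of freedom), and all p-values come from it unless named otherwise. The fit was tested on simulated data. The 3 arrays a group limit the precision. Fold intervals are 95%. No batch was named in the labels. Of each pathway list up to 4 called genes by smallest p were to be named by their brightest probe set, with Sry, Gata4 and Sox9 always, and all 9 members. The members and lists were chosen with earlier results of these data known. Alternatives were other normalizations, array weights, other choices of probe sets, a replicate block, the compared arrays alone and each pool left out.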

Additional observations from a re-analysis of the deposited data

Results flagged for a closer look

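The difference between XY and XX changed between E11.5 and E12.5, by a test of that change in limma (adjusted p under 0.05), for 6 genes around the route and for none of its 9 members. The change (log2, XY minus XX at E12.5 less the same at E11.5) was 2.75 for Aurka, 2.34 for Dusp16 and 1.26 for Mknk1, and -2.28 for Mapk12, -3.86 for Lhx9 and -1.57 for Sry. Dusp16, a phosphatase of p38 and JNK, fell in XX cells between the days and was called higher in XY than in XX at E12.5. The call of Aurka was lost without the second XY pool of E11.5 (adjusted p = 0.051, range 0.008 to 0.051). The change of Mknk1 was 0.42 as the mean of its probe sets (adjusted p = 0.4, range 0.01 to 0.4), and that of Dusp16 was 1.65 (adjusted p = 0.059). Mapk12 lost its call in 15 of 20 alternatives (adjusted p from 0.026 to 0.12).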

How the results depend on the processing

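Of the called differences of members and listed genes, 985 values under alternatives stayed on the same side of the threshold, 159 kept their direction and lost the call, and 1 reversed. Of those not called, 1178 stayed, 8 passed and 38 changed sign. The members called between the days in XY were 2 under quantile normalization, 2 with the replicate block, 1 with the compared arrays alone and 2 as means per gene, and 0 to 4 with a pool left out. In XX they were 0 with the compared arrays alone and 0 to 1 with a pool left out. Between the sexes at E12.5 1 was called with array weights and 0 to 2 with a pool left out. For the change of the sex difference 1 was called with the brightest probe set per gene, Map3k1, and 0 to 1 with a pool left out. Over all probe sets, array weights gave 5794 between the sexes at E12.5 and 2405 between the days in XX. The compared arrays alone gave 12 between the sexes at E11.5 and 624 between the days in XX. The brightest probe set per gene gave 12 between the sexes at E11.5 and 1430 between the days in XY, where means per gene gave 1605, both with fewer features tested. With a pool left out the counts ran from 23 to 57 (sexes, E11.5), 2054 to 3765 (sexes, E12.5), 183 to 1945 (days, XX), 1277 to 3077 (days, XY) and 403 to 1273 (the change). The cause of the other moves was not tested.

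With means over a gene's probe sets, signs turned for Mef2a between the days in XY (-0.05), Map2k3 between the days in XX (-0.05), Sox9 between the days in XX (0.06), Gata4 between the sexes at E12.5 (-0.02), Map3k4 between the sexes at E11.5 (-0.11) and E12.5 (0.15), the days in XX (-0.05) and the change (0.26), and Mapk14 between the sexes at E12.5 (-0.02), the days in XX (-0.01) and XY (-0.25) and the change (-0.24). Gata4 between the sexes at E12.5 was -0.04 under quantile normalization and -0.09 with array weights, and Map3k4 was 0.03 under median centring. With a pool left out, ranges that cross 0 were -0.23 to 0.08 for the second Gadd45b probe set, -0.36 to 0.14 for Map2k3, -0.23 to 0.1 for Map2k6 and -0.05 to 0.21 for Map3k4 between the sexes at E11.5. At E12.5 they were -0.2 to 0.18 for Gata4, -0.14 to 0.08 for Map3k4 and -0.31 to 0.06 for the second Mapk14 probe set. Between the days they were -0.38 to 0.11 for Sox9 in XX, and in XY -0.65 to 0.08 for Sox9, -0.23 to 0.25 for Gata4 and -0.04 to 0.23 for Map3k4. For the change they were -0.59 to 0.15 for Sox9 and -0.23 to 0.04 for Map3k4. Aside from Mef2a, none of these was called. Whether pool numbers pair the samples was not settled. Of 18 same-numbered pairs, 4 deviated together with r over 0.1 (range -0.398 to 0.235), and pairs of different numbers were not compared. With the replicate block, Gadd45g (adjusted p = 0.053) and the second Gadd45b probe set (0.057) lost their calls in XY, and Map2k6 (0.022) kept its call. Signal near background limits the dim probe sets of Mapk11 and Map2k6.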
